A study of Mus musculus with 6 samples.

Results

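Mitochondrial carriers of the Slc25a family and the Tomm and Timm genes of mitochondrial protein import were compared between KMWT1 cells, a mouse glioma line, that received an siRNA pool against YY1 (samples 4, 5 and 6) and KMWT1 cells that received a control siRNA (samples 1, 2 and 3). RNA was taken 48 hours after transfection in both groups, and the comparison asks which transcripts follow a loss of YY1, a DNA-binding zinc finger protein able to activate some genes and repress others. The labels name no genotype for the line and no separate cultures within a group. The p-values therefore rest on the scatter among these 6 samples alone, and that scatter may be technical. Genes were chosen by symbol alone, as Slc25a, Tomm or Timm followed by a number, with at least 60 counts over the 6 samples. The rule matched 73 of 24982 gene symbols, and 62 of them met the minimum, 39 carriers of 47 and 23 import genes of 26.

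Most carriers of this family, though not every gene that the symbol rule takes in, are small proteins of the inner mitochondrial membrane. They exchange nucleotides, phosphate, carboxylates, amino acids, cofactors and iron between cytosol and matrix. Nearly all mitochondrial proteins, the carriers included, are made in the cytosol and enter through the TOM complex of the outer membrane. From there the TIM23 complex takes up proteins with a presequence, while small Timm chaperones of the intermembrane space pass carriers to the TIM22 complex. YY1 is known from muscle as a regulator of mitochondrial genes.

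The knockdown was partial. Yy1 stood at 81.2, 77.6 and 78.6 CPM (counts scaled to the size of each library with TMM factors) in YY1 siRNA samples 4, 5 and 6, against 127, 128 and 126 CPM in control siRNA samples 1, 2 and 3. It fell to 62.3% of control (95% interval 56.5% to 68.6%, edgeR quasi-likelihood adjusted p 0.00154), with no overlap between the groups. Yy1 was the only 1 of 12148 tested genes to pass at an adjusted p under 0.05. The libraries held 15738457 (YY1 siRNA sample 6) to 20644057 (control siRNA sample 1) counts in genes. Sample 6 stood apart on the first principal component (44.2% of the variance) and had the highest share of counts assigned to no gene, 11.3%, against 7.87% to 10.7% in the other 5 samples. On the second component (18.7% of the variance), YY1 siRNA sample 4 stood apart, at -18.1 against 1.38 to 6.23 in the other 5 samples. Of the 5 glioma and progenitor markers checked, Nes, Sox2, Vim and Cd44 stood above 200 CPM in each sample, while Olig2 was at 0 in all of them. Gfap, the astrocyte filament gene, stood at 0 to 0.106 CPM. All 4 microglia and macrophage markers and all 3 neuron markers stayed under 1 CPM in each sample. Of the 3 endothelial markers, Pecam1 and Kdr stayed under 1 CPM and Cdh5 stood at 43.0 to 57.5 CPM. The 3 fibroblast and pericyte markers were all detected, Col1a1 at 65.2 to 92.6 CPM, Pdgfrb at 55.6 to 71.7 CPM and Dcn at 9.09 to 12.8 CPM. In such bulk samples, fewer cells of a type and less RNA per cell cannot be told apart.

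No carrier and no import gene passed the test over all genes. Of the 62 genes, 0 had an edgeR adjusted p under 0.05, a rule that called 0.00823% of all tested genes, and 0 were called by DESeq2 (0.152% of the genes it tested). At an unadjusted p under 0.05 there were 3 of 62, namely Slc25a28 and Slc25a40 higher and Tomm40 lower, which is 4.84% against 10.8% of all tested genes (5.38% higher and 5.46% lower). The groups did not overlap in 6 of the 62 genes (4 higher and 2 lower), against 16.3% of all tested genes (7.36% higher and 8.91% lower). Neither share exceeds its background. The data bound the changes closely for most of these genes. Of the 62, 51 had a 95% interval that stayed inside a 1.5-fold change up or down, as did 82.2% of all tested genes. An interval inside a 2-fold change was found for 58 of 62 (93.5%), against 95.9% of all tested genes.

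**Figure D1:**
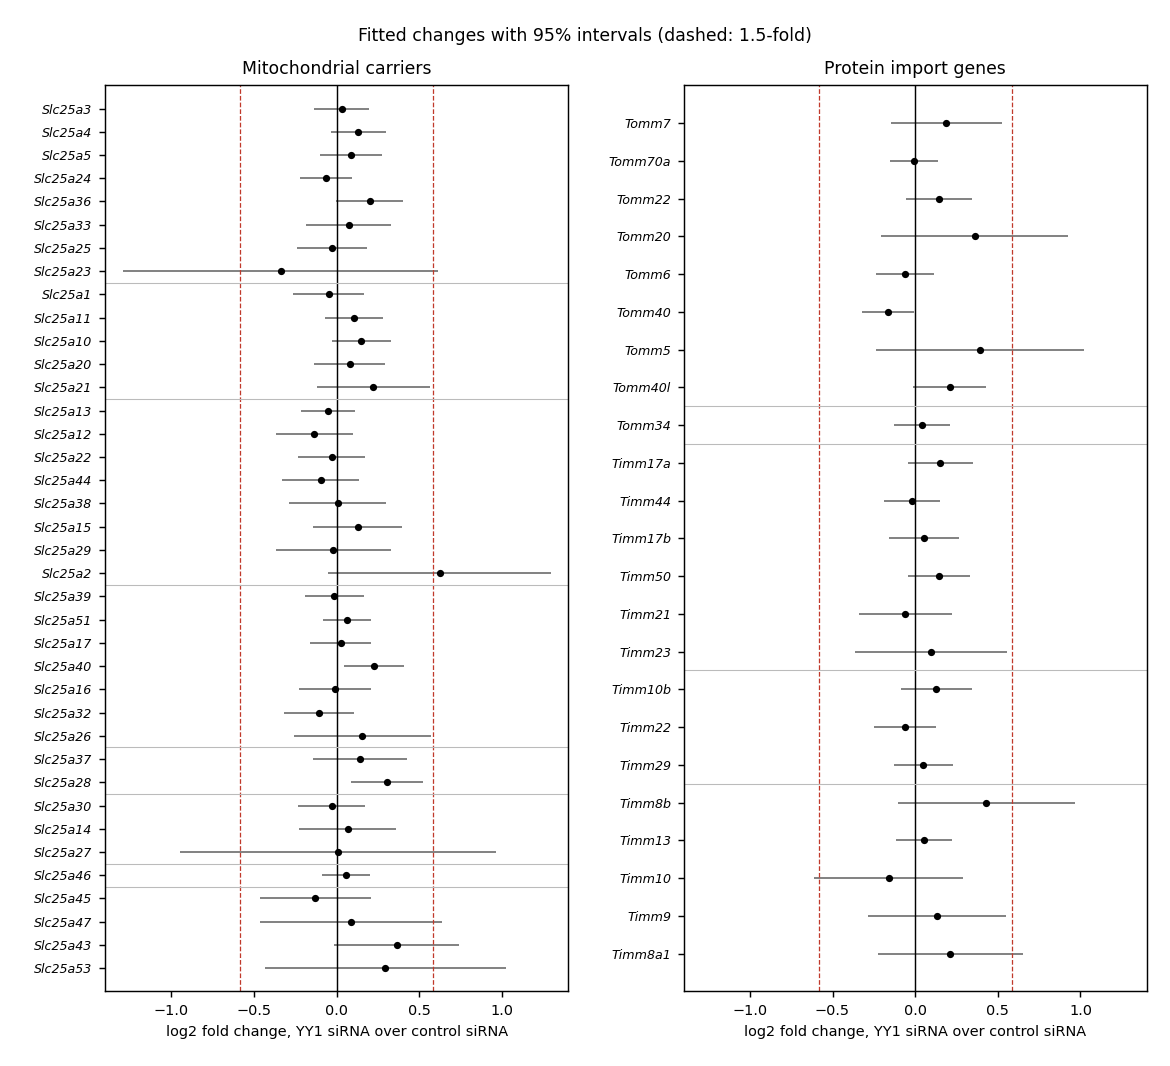
Fitted log2 fold change of YY1 siRNA over control siRNA for 38 carriers (left) and 23 import genes (right), grouped by role between the grey lines. Points are edgeR estimates, bars are 95% intervals and dashed lines mark 1.5-fold. Most intervals cross 0 and stay between the dashed lines, and the wide ones include genes of few counts (Slc25a23, Slc25a27) as well as Tomm5, Tomm20 and Timm8b.

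The motif of YY1 was searched beside the starts of these genes, and the stretches that hold it are shown. RefSeq promoter windows (GRCm38.p6, 250 bases before to 50 after a start) were matched for 50 of the 62 genes, 30 carriers and 20 import genes. The motif AANATGGCG, on either strand, was found in 3 of the 50 (6.00%), against 590 of 9576 tested genes with a window (6.16%) and 2.38% of all windows. The 3 genes were Timm50, Timm44 and Slc25a3. Their motifs are printed below in capitals with up to 10 bases on each side, 5′ to 3′ on the strand of the gene.
Timm50: gcgtcagcgcAAGATGGCGgcctcggcgg
Timm44: gggctcttccAACATGGCGgcggcagctc
Slc25a3: gttgggtgttCGCCATCTT
The Timm50 stretch lies at chr7:28312017-28312045 on the minus strand, and its motif begins at base 12 counted from the RefSeq start. The Timm44 stretch lies at chr8:4275872-4275900, also on the minus strand, with the motif from base 16 counted from the RefSeq start. In both, the ATG inside the motif is the annotated start codon. The Slc25a3 stretch lies at chr10:91123918-91123936 on the minus strand, where the motif is read on the opposite strand and begins at base 42 of a Slc25a3 start. None of the 3 genes passed the test, and their values stand with their groups below.

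Sites of NRF1 and GABPA, other regulators of mitochondrial genes, were searched in the same windows. The 10-base palindrome of NRF1 was in 0 of the 50 genes and in 2.39% of tested genes with a window. The GABPA motif CCGGAAGT, on either strand, was in 5 of 20 import genes (Timm10, Timm10b, Timm23, Timm29 and Tomm70a) and in 1 of 30 carriers (Slc25a20), against 9.51% of tested genes. The Timm23 and Tomm70a sites are shown as examples, Timm23 being a channel subunit and Tomm70a a receptor of import.
Timm23: cgcgcttcccACTTCCGGgccgcacaca
Tomm70a: ccttctgaccCCGGAAGTggttctcccc
They lie at chr14:32201922-32201949 (minus strand) and chr16:57121624-57121651 (plus strand). A match describes letters and is no evidence of binding.

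Carriers that move adenine nucleotides and phosphate were the most abundant of the family. Per kilobase of transcript, the phosphate carrier Slc25a3 stood at 306 CPM in YY1 siRNA samples and 300 CPM in control siRNA samples, above the ADP/ATP carriers Slc25a5 (195 and 184 CPM) and Slc25a4 (189 and 173 CPM). With the union of exons as length, Slc25a4 and Slc25a5 come before Slc25a3, so the order of the leading carriers depends on the gene model. Slc25a3 had 514, 468 and 499 CPM in YY1 siRNA samples, against 466, 494 and 490 CPM in control siRNA samples, and the samples overlapped (log2 fold change 0.03, 95% interval -0.14 to 0.20). Slc25a4 had 371, 336 and 386 CPM in YY1 siRNA samples, against 326, 336 and 336 CPM in control siRNA samples. All 3 YY1 siRNA values lay above the controls, the lowest of them by a margin smaller than the rounding shown (log2 fold change 0.13, SE 0.0768, edgeR adjusted p 0.527). Slc25a5 had 256, 212 and 259 CPM in YY1 siRNA samples and 219, 225 and 239 CPM in control siRNA samples, with YY1 siRNA sample 5 below every control (edgeR adjusted p 0.707). Slc25a4 made up 49.3% ± 1.16 of the pair per kilobase in YY1 siRNA samples and 48.5% ± 0.879 in control siRNA samples (SD, n = 3 each, exact permutation p 0.5, two-sided). The annotation holds a transcribed processed pseudogene of Slc25a5, so its count may include or lose shared reads.

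**Figure D2:**
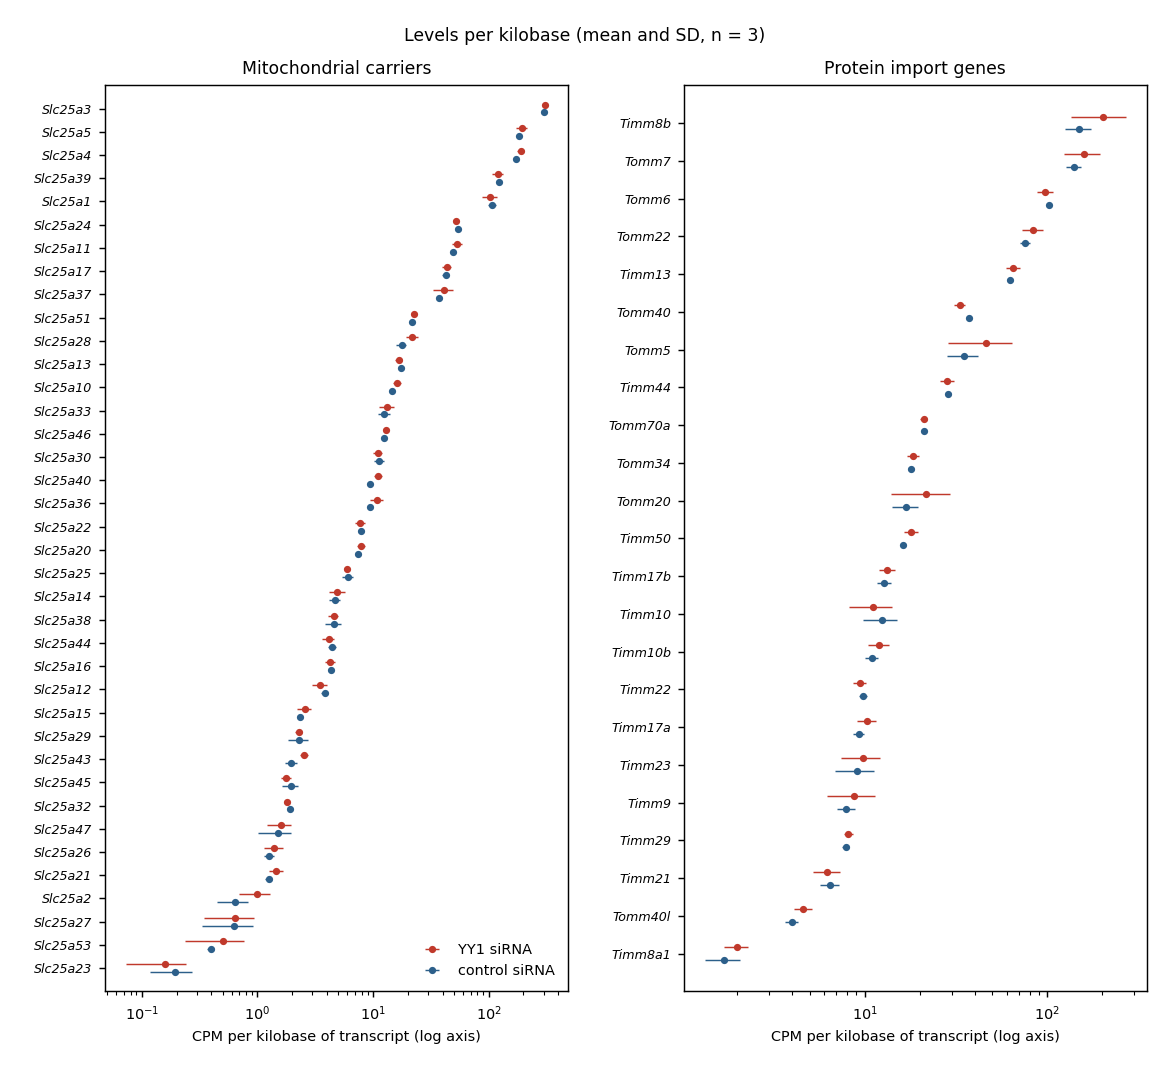
Mean CPM per kilobase of representative transcript on a log axis for 38 carriers (left) and 23 import genes (right), YY1 siRNA in red above control siRNA in blue, with SD over 3 samples. Slc25a3, Slc25a5 and Slc25a4 lead the carriers, and Timm8b, Tomm7 and Tomm6 lead the import genes.

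The calcium-regulated ATP-Mg/phosphate carriers were dominated by Slc25a24, at 180 ± 12.1 CPM in YY1 siRNA samples and 188 ± 4.72 CPM in control siRNA samples (SD, n = 3). Its relative Slc25a25 stood at 19.6 ± 1.09 and 20.0 ± 2.20 CPM in YY1 siRNA and control siRNA samples. Slc25a23, the scarcest gene retained, held 65 counts in all 6 samples together, just above the minimum. Its fold change has a 95% interval from 0.409 to 1.53, so the depth shows little about it. Slc25a36, a pyrimidine nucleotide carrier, had 47.9, 62.7 and 59.4 CPM in YY1 siRNA samples, against 48.3, 48.8 and 50.9 CPM in control siRNA samples. Samples 5 and 6 were above all controls and sample 4 below them (log2 fold change 0.20, edgeR adjusted p 0.468, and 0.0841 without YY1 siRNA sample 4, where the log2 fold change was 0.31). The other pyrimidine carrier tested, Slc25a33, had 22.2, 23.7 and 29.1 CPM in YY1 siRNA samples and 20.7, 23.9 and 26.6 CPM in control siRNA samples, with overlap (log2 fold change 0.07, and -0.05 without YY1 siRNA sample 6).

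Iron import had the carrier with the smallest p of the family, Slc25a28, known as mitoferrin 2 (chr19:43663801-43674881, minus strand, mm10). Slc25a28 had 29.3, 35.6 and 35.8 CPM in YY1 siRNA samples, against 25.4, 30.2 and 25.8 CPM in control siRNA samples. Samples 5 and 6 lay above all controls, while sample 4 lay below control siRNA sample 2, so the groups overlapped. The fitted change was 0.31 on the log2 scale (SE 0.101, unadjusted p 0.00978, edgeR adjusted p 0.318), or 1.24-fold with a 95% interval of 1.06 to 1.44. Without each sample in turn it was 0.25 to 0.40, with the lowest value without YY1 siRNA sample 6. It was 0.18 in a fit that adds each sample's no-gene share as a term. That share was 10.7% and 11.3% in samples 5 and 6 and 7.87% in sample 4, and its part in the difference was tested only through that covariate. Slc25a37, mitoferrin 1, was the more abundant of the pair, with 138, 176 and 205 CPM in YY1 siRNA samples and 147, 161 and 163 CPM in control siRNA samples. YY1 siRNA samples 5 and 6 were highest here too and sample 4 was the lowest of all 6. Its log2 fold change of 0.14 became -0.01 without YY1 siRNA sample 6 and 0.29 without YY1 siRNA sample 4.

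Slc25a40 and Slc25a39, which carry glutathione into the matrix, were next by role. Slc25a40 (chr5:8422850-8454797, plus strand, mm10) had 28.9, 30.4 and 33.8 CPM in YY1 siRNA samples, against 27.6, 25.6 and 26.3 CPM in control siRNA samples. All 3 YY1 siRNA samples lay above all controls. Its fitted log2 change was 0.22 (SE 0.0842, unadjusted p 0.0201, edgeR adjusted p 0.381), and 0.13 once transcript length and GC content were fitted as offsets. Slc25a39 stood at 204 ± 22.2 CPM in YY1 siRNA samples and 206 ± 6.89 CPM in control siRNA samples. The share of Slc25a40 in the pair per kilobase was 8.51% ± 1.34 and 7.23% ± 0.431 in YY1 siRNA and control siRNA samples and overlapped between them (exact permutation p 0.3, two-sided, where 3 against 3 cannot go below 0.1).

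**Figure D3:**
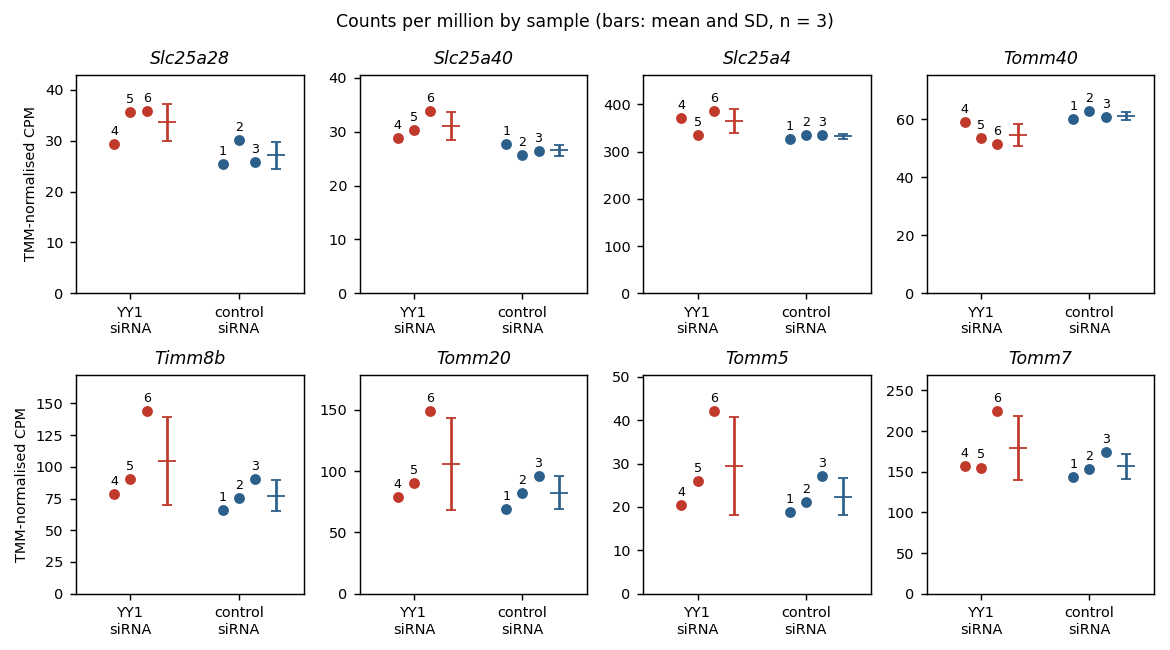
TMM-normalised CPM of 8 genes in each sample, with the sample number above each point and mean and SD beside it (n = 3). Slc25a28, Slc25a40 and Tomm40 have the smallest p-values, Slc25a4 is an ADP/ATP carrier, and the lower row shows import genes whose highest value is YY1 siRNA sample 6, followed by control siRNA sample 3.

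No other cofactor carrier had an unadjusted p under 0.05. The NAD carrier Slc25a51 had 99.7, 105 and 95.7 CPM in YY1 siRNA samples and 94.9, 96.1 and 96.8 CPM in control siRNA samples. The groups overlapped and the 95% interval of the fold change ran from 0.944 to 1.15. Of the 8 cofactor carriers, 4 had a fitted change above 0 and 4 below.

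Carboxylate carriers and the carnitine carrier had 4 of 5 fitted changes above 0, with a median log2 fold change of 0.11. The citrate carrier Slc25a1, which exports citrate for lipid synthesis, was the exception with 199, 163 and 153 CPM in YY1 siRNA samples and 185, 187 and 162 CPM in control siRNA samples. YY1 siRNA sample 4 was the highest of the 6 and sample 6 the lowest. Sample 4 was also the highest of all samples for the oxoglutarate carrier Slc25a11 (102, 85.2 and 86.9 CPM in YY1 siRNA samples, 87.3, 81.6 and 86.0 CPM in control siRNA samples) and for the dicarboxylate carrier Slc25a10 (35.5, 32.7 and 30.1 CPM in YY1 siRNA samples, 30.4, 29.0 and 29.4 CPM in control siRNA samples). Neither passed (edgeR adjusted p 0.620 for Slc25a11 and 0.516 for Slc25a10).

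Amino acid carriers had 3 of 8 fitted changes above 0 and a median log2 fold change of -0.03. Of the aspartate-glutamate carriers, which serve the malate-aspartate shuttle, Slc25a13 stood at 52.1 ± 3.73 CPM in YY1 siRNA samples and 54.1 ± 2.10 CPM in control siRNA samples. Slc25a12 stood at 22.1 ± 3.25 and 24.4 ± 1.79 CPM in YY1 siRNA and control siRNA samples, and its log2 fold change of -0.13 was -0.25 when YY1 siRNA sample 4 was left out and -0.06 when sample 6 was. The largest fitted change among all carriers, 0.62, belonged to Slc25a2, an ornithine carrier gene of 122 counts in all, with 0.891, 1.54 and 1.63 CPM in YY1 siRNA samples and 0.673, 0.779 and 1.16 CPM in control siRNA samples. The groups overlapped and the 95% interval ran from -0.05 to 1.30 (edgeR adjusted p 0.482).

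Among carriers with no settled substrate, Slc25a43 stood at 2.82 ± 0.198 CPM in YY1 siRNA samples and 2.19 ± 0.255 CPM in control siRNA samples (SD, n = 3 each). All YY1 siRNA samples lay above all controls, the highest of which had 2.49 CPM (edgeR log2 fold change 0.36, SE 0.174, adjusted p 0.472). Slc25a46, a family member of the outer membrane, stood at 56.6 ± 1.19 CPM in YY1 siRNA samples and 54.4 ± 1.92 CPM in control siRNA samples. Slc25a53 rests on 1 sample: YY1 siRNA sample 6 had 2.09 CPM, and the other 5 samples had 0.891 to 1.06 CPM. Its fitted log2 change was 0.29, and -0.19 without sample 6.

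**Figure D4:**
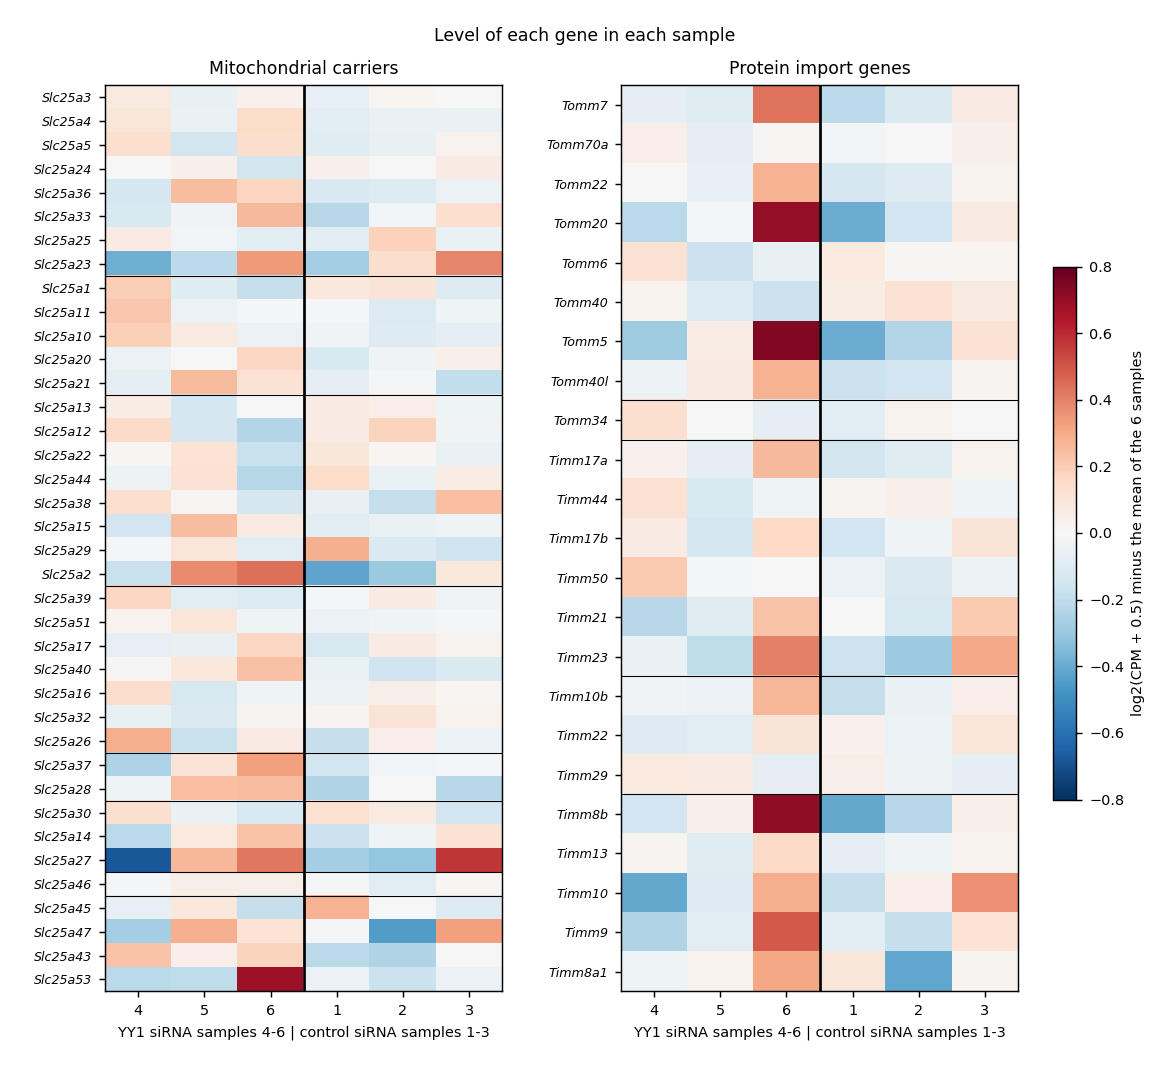
Level of 38 carriers and 23 import genes in each sample as log2(CPM + 0.5) minus its mean over the 6 samples (red above, blue below the mean), with YY1 siRNA samples left of the line, control siRNA samples right of it, and roles separated by thin lines. The column of YY1 siRNA sample 6 is red for most import genes, with control siRNA sample 3 next, while carriers show no such column.

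At the outer membrane, the import pore gene Tomm40 was the only import gene with an unadjusted p under 0.05. Tomm40 (chr7:19701313-19715438, minus strand, mm10) had 59.0, 53.6 and 51.4 CPM in YY1 siRNA samples, against 60.3, 62.9 and 60.8 CPM in control siRNA samples. All YY1 siRNA samples lay below all controls, sample 4 by little. Its fitted log2 change was -0.16 (SE 0.0731, unadjusted p 0.0430, edgeR adjusted p 0.446), or 89.2% of control, and -0.22 to -0.13 without each sample in turn. Its relative Tomm40l had 19.6, 21.2 and 24.5 CPM in YY1 siRNA samples, against 17.8, 18.1 and 20.4 CPM in control siRNA samples, with sample 4 below control siRNA sample 3 (edgeR adjusted p 0.473). Tomm40l shares 3304 exon bases with Nr1i3 on the opposite strand in the annotation, so its counts are uncertain where strand was not used. Its share of the pair per kilobase was 12.3% ± 1.95 in YY1 siRNA samples and 9.66% ± 0.738 in control siRNA samples, with overlap (exact permutation p 0.2, two-sided). That was 1 of 9 pairs of related genes compared, and the smallest p adjusted over the 9 was 0.600.

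The receptor genes of the outer membrane differed in how evenly the samples read them. Tomm70a, the receptor that carrier precursors use, had 131, 119 and 127 CPM in YY1 siRNA samples and 124, 126 and 129 CPM in control siRNA samples (log2 fold change -0.01, 95% interval -0.15 to 0.14). Tomm20, the presequence receptor, had 78.8, 90.7 and 149 CPM in YY1 siRNA samples and 69.3, 82.2 and 96.2 CPM in control siRNA samples. Only YY1 siRNA sample 6 lay above the controls, and the log2 fold change of 0.36 (edgeR SE 0.241, adjusted p 0.592) was 0.03 without it. Tomm22, the central receptor, had 124, 118 and 150 CPM in YY1 siRNA samples and 113, 115 and 127 CPM in control siRNA samples, with log2 fold changes of 0.14 and, without sample 6, 0.03.

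The small TOM subunits gave the same split by sample. Tomm5 had 20.3, 26.0 and 42.0 CPM in YY1 siRNA samples and 18.8, 21.1 and 27.1 CPM in control siRNA samples (log2 fold change 0.39, SE 0.268, edgeR adjusted p 0.596, and 0.05 without YY1 siRNA sample 6). Tomm7 had 157, 155 and 224 CPM in YY1 siRNA samples and 144, 153 and 174 CPM in control siRNA samples (log2 fold change 0.19, and -0.01 without sample 6). Tomm6 did not share this, at 81.3, 66.3 and 71.7 CPM in YY1 siRNA samples and 78.7, 75.2 and 75.5 CPM in control siRNA samples. Tomm6 shares 859 exon bases with an overlapping gene on its own strand, Gm21981.

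Presequence translocase genes showed no change past the threshold. The motor anchor Timm44, 1 of the 3 genes with a YY1 motif, had 55.6, 46.8 and 49.8 CPM in YY1 siRNA samples and 51.8, 52.5 and 49.7 CPM in control siRNA samples (log2 fold change -0.02, 95% interval -0.19 to 0.15). The receptor Timm50, which also carries the motif, had 30.0, 25.6 and 25.9 CPM in YY1 siRNA samples and 23.8 to 25.1 CPM in control siRNA samples. The groups did not overlap, sample 4 being the highest (edgeR log2 fold change 0.14, SE 0.0864, adjusted p 0.540). Timm23, which forms the channel, had 10.4, 9.35 and 14.5 CPM in YY1 siRNA samples and 9.62, 8.77 and 13.5 CPM in control siRNA samples, so that sample 6 and control siRNA sample 3 stood above the other 4 (log2 fold change 0.09, and -0.11 without sample 6). Its partners Timm17a and Timm17b kept overlapping ratios in the groups, Timm17a making up 43.6% ± 1.12 of the pair per kilobase in YY1 siRNA samples and 42.0% ± 0.769 in control siRNA samples (exact permutation p 0.2, two-sided).

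On the carrier path, the TIM22 channel gene Timm22 stood at 26.5 ± 2.20 CPM in YY1 siRNA samples and 27.6 ± 1.42 CPM in control siRNA samples, while its partner Timm29 had 26.7, 26.6 and 24.0 CPM in YY1 siRNA samples and 26.2, 24.6 and 24.1 CPM in control siRNA samples. Among the small chaperones, Timm8b had the largest fitted change of any import gene and the highest level per kilobase of all 23 (201 CPM in YY1 siRNA samples, 149 CPM in control siRNA samples). Timm8b had 78.9, 90.2 and 144 CPM in YY1 siRNA samples and 66.1, 75.2 and 90.4 CPM in control siRNA samples. YY1 siRNA sample 6 was far above the rest, and sample 5 and control siRNA sample 3 were nearly equal. Its fitted log2 change was 0.43 (SE 0.228, edgeR adjusted p 0.516) and 0.12 without sample 6. The chaperone pair Timm9 and Timm10 had low levels, with Timm9 at 6.82, 7.65 and 11.6 CPM in YY1 siRNA samples and 7.60, 7.11 and 8.84 CPM in control siRNA samples (log2 fold change 0.13, and -0.12 without sample 6). Timm10 had 5.87, 7.38 and 9.86 CPM in YY1 siRNA samples and 6.93, 8.31 and 10.4 CPM in control siRNA samples, with a log2 fold change of -0.16, which was -0.37 without sample 6 and 0.01 without YY1 siRNA sample 4. Timm8a1, the relative of Timm8b and the scarcest import gene, stood at 2.83 ± 0.435 CPM in YY1 siRNA samples and 2.42 ± 0.525 CPM in control siRNA samples.

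As a group, import genes had a median that turned sign without YY1 siRNA sample 6. The median log2 fold change was 0.09 over 23 import genes, 0.06 over 39 carriers and 0.00 over all tested genes. Of the import genes, 16 had a fitted change above 0 (69.6%), as did 24 carriers (61.5%) and 50.2% of all tested genes. When YY1 siRNA sample 6 was left out, the import median was -0.01 and the carrier median 0.02, with 11 import genes above 0. Sample 6 had the highest value of all 6 samples in 15 of 23 import genes (65.2%), against 11 of 39 carriers (28.2%) and 27.1% of all tested genes. Control siRNA sample 3 was the highest control in 17 of 23 import genes (73.9%) and 18 of 39 carriers (46.2%). The share over all tested genes was 34.8%. The summed level of the 23 import genes was 1193, 1153 and 1461 CPM in YY1 siRNA samples and 1102, 1147 and 1247 CPM in control siRNA samples, while the 39 carriers summed to 2659, 2503 and 2630 CPM in YY1 siRNA samples and 2469, 2540 and 2522 CPM in control siRNA samples. The import sums overlapped between the groups, with and without sample 6. Across the 23 import genes, the excess of sample 6 over samples 4 and 5 had a Spearman rho of -0.37 with transcript length. It was -0.21 across the 39 carriers and -0.26 across 12069 tested genes with a gene model, points that share the same libraries. The Pearson r with log2 length was -0.34 for import genes, -0.04 for carriers and -0.31 for those tested genes. Whether transcript length, the smaller number of counts in sample 6 or its share of counts in no gene bears on the import genes was not tested beyond these values.

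**Figure D5:**
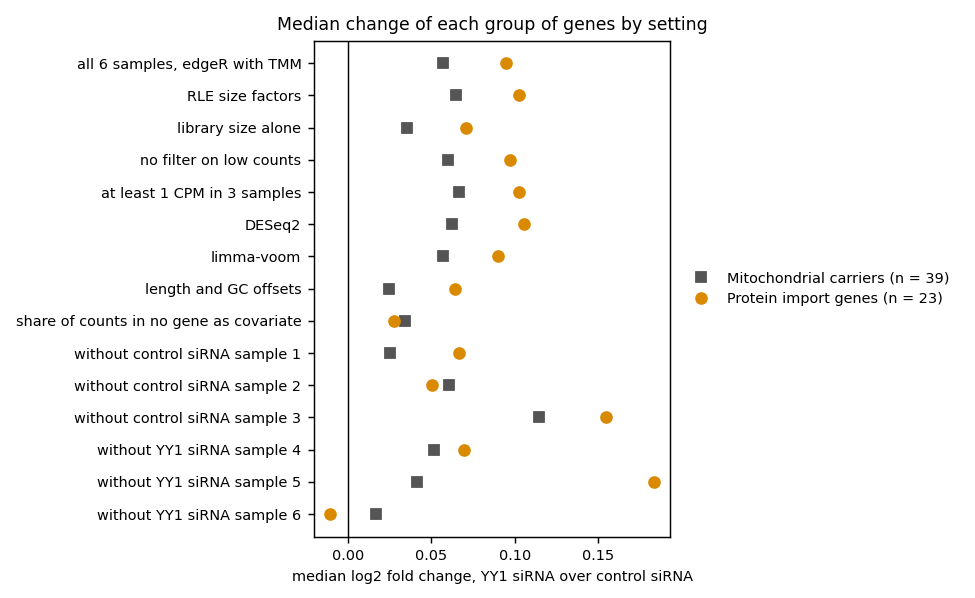
Median log2 fold change of YY1 siRNA over control siRNA for 39 carriers (squares) and 23 import genes (circles) under each processing setting. Both medians are above 0 in each setting shown, except that of import genes without YY1 siRNA sample 6, at -0.01.

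Other genes of import, from a list of 26 that includes proteases, chaperones and insertases, gave 0 past the adjusted threshold and 1 at an unadjusted p under 0.05 (3.85%, against 10.8% of all tested genes). That gene was Oxa1l, the inner membrane insertase, with 26.7, 23.7 and 21.1 CPM in YY1 siRNA samples and 29.0, 31.6 and 29.7 CPM in control siRNA samples. All YY1 siRNA samples lay below all controls (log2 fold change -0.33, SE 0.0940, edgeR adjusted p 0.261). Hspa9, the motor chaperone of the matrix, stood at 935 ± 98.7 CPM in YY1 siRNA samples and 1051 ± 29.7 CPM in control siRNA samples (edgeR adjusted p 0.516). Its exchange factor Grpel1 stood at 120 ± 24.8 and 101 ± 7.70 CPM in YY1 siRNA and control siRNA samples (log2 fold change 0.25, and 0.06 without sample 6), and Gfer, an oxidase of the intermembrane space, at 22.5 ± 1.06 and 19.9 ± 1.92 CPM. The list had a median log2 fold change of 0.09 and, without YY1 siRNA sample 6, 0.02, and its highest value was in sample 6 for 16 of 26 genes, against 27.1% of all tested genes.

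Transport genes outside the Slc25a family, 19 tested of 22 listed, also gave 0 past the adjusted threshold, with 3 at an unadjusted p under 0.05 (15.8%, against 10.8% of all tested genes). Mpc2, a subunit of the pyruvate carrier, had 27.7, 27.6 and 39.4 CPM in YY1 siRNA samples and 19.4, 22.7 and 25.2 CPM in control siRNA samples. All YY1 siRNA samples lay above all controls, with a fitted log2 change of 0.49 (SE 0.152, edgeR adjusted p 0.332) and 0.30 without sample 6. Sfxn1, the mitochondrial serine transporter, had 68.0, 63.8 and 62.0 CPM in YY1 siRNA samples and 73.7, 76.3 and 73.6 CPM in control siRNA samples, also without overlap (log2 fold change -0.21, SE 0.0682, edgeR adjusted p 0.319). Its relative Sfxn5 completed the 3, at 4.30 ± 0.384 and 5.43 ± 0.199 CPM in YY1 siRNA and control siRNA samples, without overlap (edgeR adjusted p 0.401). Sfxn4 was not among them, at 0.947 ± 0.143 and 0.631 ± 0.142 CPM with overlap (edgeR unadjusted p 0.0661, adjusted p 0.482).

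The 11 genes under the minimum included 5 with 0 counts in every sample: the testis ADP/ATP carrier gene Slc25a31, Slc25a41, Slc25a48, Slc25a54 and Tomm20l. A count of 0 allows up to 0.145 to 0.191 CPM per sample, at 3 counts. Just below the minimum were Tomm6os, an antisense transcript that the symbol rule also matched, with 55 counts, and the coenzyme A carrier gene Slc25a42 with 50. Slc25a42 had 12, 12 and 9 counts in YY1 siRNA samples and 3, 5 and 9 in control siRNA samples, and it was not tested as a member. Slc25a35, with 16 counts, and Slc25a18, Slc25a34 and Timm8a2, with 2 or fewer, complete the set.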

How the data were processed

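The authors deposited one table of raw read counts per gene symbol for each of 6 RNA-seq samples, 3 per group. Per the submitters' processing notes, STAR 2.6.1a, edgeR 3.30.0 and the build mm10 were used. Which counting program, annotation and strand setting were used is not stated, so genes that overlap on opposite strands may share reads. The 2 rows that name no gene, 7.87% to 11.3% (no gene) and 1.01% to 1.15% (ambiguous) of counts, entered neither library sizes nor tests. The table of YY1 siRNA sample 6 alone is not marked as combined.

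Counts were tested with edgeR 4.0.16 (R 4.3.3): filterByExpr, TMM, robust quasi-likelihood F test, two-sided, Benjamini-Hochberg adjustment over 12148 genes, threshold 0.05. CPM values are TMM-scaled, with mean ± SD over 3 samples. Intervals and floors cover the model's spread or counting error only. Gene models came from GENCODE M21 (GRCm38). The length of a gene is that of its longest principal transcript, and all 73 symbols matched. DESeq2 1.42.0, limma-voom (limma 3.58.1), other scalings and filters, length and GC offsets (mgcv 1.9.3), a covariate and leaving out each sample were alternatives. The fit was also run on simulated counts, drawn with no shifts between samples other than library size and the set changes. That run cannot show how sample-wide shifts bear on the tests.

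The genes, roles and lists were chosen with earlier results of these data known. Named genes are Yy1, the 8 carriers and 8 import genes with the smallest p, fixed carriers, channels, receptors and related pairs, the most and least abundant of each group, those near the minimum and the 4 smallest p of each other list. Slc25a1, Slc25a11, Slc25a33, Slc25a39, Slc25a46, Slc25a51, Timm29 and the genes named only for a motif were chosen after their values were seen. The same holds for the NRF1 and GABPA motifs. Protein features planned for these families were not analysed here. Of the carriers, 1 that the counts and medians include is not reported here by name or drawn in the figures of single genes.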

Additional observations from a re-analysis of the deposited data

Results flagged for a closer look

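Counts that fell in no annotated gene made up 7.87%, 10.7% and 11.3% of YY1 siRNA samples 4, 5 and 6, and at most 9.03% of a control siRNA sample. Samples 5 and 6 are listed because this measure, which the main comparison leaves out and 1 alternative fit uses as a covariate, exceeded every control there.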

How the results depend on the processing

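No paired analysis was possible because the groups have no replicate number in common. Under 14 alternatives, 0 of the 62 genes passed over all genes (smallest adjusted p 0.0841, Slc25a36 without YY1 siRNA sample 4), and Yy1 passed in each (log2 fold change -0.71 to -0.64). Genes changed in the whole table, 1 in the main test, numbered 7 with library size alone, 83 without a filter on low counts, 19 with DESeq2, 16 with length and GC offsets and 1 to 41 without each sample (YY1 siRNA sample 4 left out gave 41, sample 6 gave 3, and control siRNA sample 3 gave 2). Carriers at an unadjusted p under 0.05, 2 of 39 in the main test, numbered 4 without the filter and 1 to 6 without each sample. Leaving out control siRNA sample 2 gave 1, YY1 siRNA sample 5 gave 4 and YY1 siRNA sample 4 gave 6. Of all tested genes, 10.8% had such a p in the main test and 19.1% without YY1 siRNA sample 4. Import genes at an unadjusted p under 0.05, 1 of 23 in the main test, numbered 0 with DESeq2. With limma-voom, library size alone, length and GC offsets, the no-gene covariate or no filter there were 2. They numbered 0 to 4 without each sample: 0 without control siRNA sample 1 or 2 or YY1 siRNA sample 6, 2 without control siRNA sample 3, and 4 when YY1 siRNA sample 4 was left out, where 19.1% of all tested genes had such a p. The carrier median was 0.025 with length and GC offsets and 0.017 to 0.114 without each sample (0.025 without control siRNA sample 1, 0.114 without control siRNA sample 3, 0.017 without YY1 siRNA sample 6). The import median was -0.010 (without YY1 siRNA sample 6) to 0.183 (without YY1 siRNA sample 5). For all of these shifts, the cause was not tested. Of 35 named genes besides Yy1, 15 changed the sign of the fitted value at least once, none of them past the threshold.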
